A study of Rattus norvegicus with 24 samples.

Results

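The expression of 10 genes with which the liver senses, exports, takes up and stores iron was compared between obese and lean Zucker rats fed with or without ecdysterone. The genes were Hamp, Tfr2, Bmp6, Slc40a1, Fth1, Ftl1, Tf, Slc11a2, Slc39a14 and Ireb2, and all 10 were found by their gene symbol among the 23188 transcripts of the deposited Clariom S array table. Each of them was represented by 1 probe set made of 10 probes, so that no choice between probe sets was necessary. Liver RNA of 24 male rats, 25 weeks old when feeding of the diets began, was hybridised, 1 array per rat and 6 rats per group. Groups OC and OE were homozygous obese rats (fa/fa), and groups LC and LE were heterozygous lean rats (fa/+). The fa allele is a mutation of the leptin receptor gene, and as the lean rats carry it as well, a rat without the allele was not part of the comparison. All groups received the same basal diet, to which 0.5 g/kg of ecdysterone, a steroid hormone of insects that also occurs in plants, was added for groups OE and LE and nothing for groups OC and LC. The rats were housed in pairs and the labels do not tie a rat to its cage, hence each rat was treated as separate. The arrays are numbered group by group, so the order of processing and the group cannot be told apart. Array medians lay between 6.51 and 6.61 on the log2 scale in all groups.

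Ferroportin, encoded by Slc40a1, is an exporter through which iron leaves a cell. Hepcidin, the peptide hormone encoded by Hamp, is made in hepatocytes and blocks and degrades ferroportin, whereby the release of iron from the gut, from macrophages and from the liver itself is restricted. Hepatocytes set the production of hepcidin by a BMP and SMAD pathway, in which BMP6 from sinusoidal endothelial cells acts with the co-receptor hemojuvelin (Hjv), with HFE and with transferrin receptor 2 (Tfr2), and by a STAT3 pathway that is activated by interleukin-6. Inside cells, the iron regulatory proteins (encoded by Aco1 and Ireb2) bind to iron responsive elements in mRNAs when iron is scarce. There they hold back the translation of the ferritin subunits (Fth1, Ftl1) and stabilise the mRNA of transferrin receptor 1 (Tfrc), so that the level of a ferritin mRNA is not a measure of the ferritin protein.

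As Hamp was the iron gene that differed most between the genotypes, the sequence in front of its start site is shown with the letters that its BMP and SMAD pathway and its STAT3 pathway are known to use. The 250 bases upstream of the RefSeq start site (GRCr8, chr1:95300272-95300521, minus strand) are written in lower case, with the BMP response element GGCGCC at -129 to -124 and the STAT site TTCNNNGAA, here as TTCTTGGAA, at -117 to -109 in capitals, counted from the start site.
Hamp: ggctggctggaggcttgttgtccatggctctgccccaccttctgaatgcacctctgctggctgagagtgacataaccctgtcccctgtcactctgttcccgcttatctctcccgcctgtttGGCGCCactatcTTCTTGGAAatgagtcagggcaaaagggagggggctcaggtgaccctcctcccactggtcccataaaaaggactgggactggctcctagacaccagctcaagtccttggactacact
Both motifs were searched on both strands, from 250 bases before to 50 after the start site, in 33469 RefSeq windows of rat genes. GGCGCC occurred in 11.0% of the windows, TTCNNNGAA in 8.87% and both together in 0.547%. A window was found for 7 of the 10 genes (8 windows), but none for Fth1, Ftl1 and Slc39a14, which were therefore not searched. Among the 8 windows only that of Hamp held either motif. The letters of an antioxidant response element, TGANNNNGC, were found at -147 to -139 in 1 window of Slc11a2 and in 40.5% of all windows. The letters of the loop of an iron responsive element, read on the sense strand, were in none of these 8 windows and in 9.55% of all windows. This says nothing of the ferritin genes, which had no window. As the windows end 50 bases after the start site, later parts of an mRNA were not searched either. Matches of motifs describe the letters only and are not evidence of a site.

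Differences are given on the log2 scale as the first named group minus the second, with the standard error and the p-value of limma, adjusted over all 23188 transcripts after Benjamini and Hochberg. A gene was called when the adjusted p was under 0.05. In group OC vs. LC, 1 of the 10 iron genes was called (Hamp, lower in OC), while 2.59% of all transcripts were called and 1.15% were called lower. In group OE vs. LE, none of the 10 was called, against 2.11% of all transcripts. Over both diets (obese vs. lean), again 1 of the 10 was called, against 6.52% of all transcripts in either direction and 2.95% lower. At an unadjusted p under 0.05, 2 iron genes passed in OC vs. LC (Hamp and Slc40a1), 1 passed in OE vs. LE (Hamp) and 4 passed over both diets (Hamp, Slc40a1, Slc39a14 and Ireb2), compared with 12.8%, 12.4% and 17.8% of all transcripts, in this order. With 10 genes a single call is a small count beside these shares, so nothing is read from it about the 10 genes as a group.

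Hamp (chromosome 1, bases 89367993 to 89369986 on the minus strand in the Rnor_6.0 coordinates of the file) was lower in obese rats. In group OC the log2 signals were 16.35, 17.05, 16.7, 15.89, 15.84 and 15.55, against 17.19, 16.64, 17.96, 17.56, 17.94 and 18.09 in group LC. In 4 of the 6 OC rats Hamp was below every LC rat, and all 6 OC rats were below the mean of LC, although the ranges overlapped between 16.64 and 17.05. The difference was -1.34 ± 0.32 (SE, n = 6 per group; 95% interval -1.99 to -0.68), that is a 2.52-fold lower signal in OC, with an adjusted p of 0.0154 in limma. An exact two-sided permutation test of the same 12 rats gave p = 0.00649, where 0.00216 is the smallest p that 6 against 6 rats allow. Of all transcripts on the array, 0.798% had a larger absolute difference in this comparison. The call held when any 1 of the 24 rats was left out (-1.52 to -1.20; highest adjusted p 0.0475), but was lost with the methods' t-test after Benjamini-Hochberg adjustment (adjusted p 0.104; range over all alternatives 0.00983 to 0.104). Because whole liver was measured, fewer cells that express a gene and less RNA of it per cell cannot be told apart.

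With ecdysterone in the diet, the signals of Hamp were 16.9, 15.51, 16.75, 16.43, 18.2 and 16.7 in group OE, against 18.12, 17.42, 17.51, 17.98, 17.06 and 17.18 in group LE. Here 5 of the 6 OE rats were below every LE rat, whereas OE rat 23, at 18.2, was above all of them. The difference of -0.80 ± 0.32 did not pass the adjustment in limma (adjusted p 0.258, unadjusted p 0.0182), and the exact permutation test gave p = 0.0714. Without rat 23 the difference was -1.09 with an adjusted p of 0.0439. Over both diets, with 12 rats per genotype, Hamp was 2.1-fold lower in obese rats (-1.07 ± 0.23, adjusted p 0.0024 in limma), and this call held in all 8 alternatives and without any 1 rat (-1.21 to -0.94). Among the 8, means over probe sets leave the signals of Hamp unchanged, as it has 1 probe set, and the second deposited table differs by at most 0.005. The methods' t-test, with which the call in OC vs. LC was lost, gives no value over both diets. The 2 genotype differences share no rat, and their difference, which is the interaction of genotype and ecdysterone, was 0.54 ± 0.45 with an adjusted p of 1.0.

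**Figure D1:**
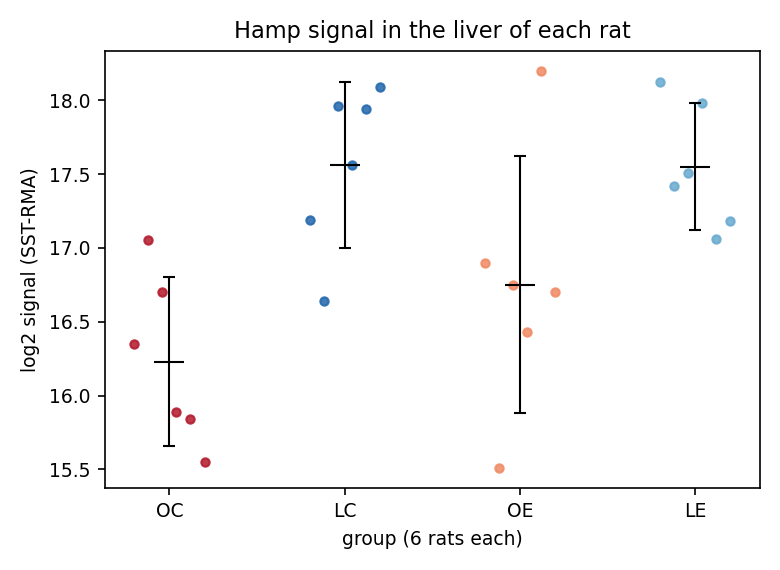
Hamp log2 signal of each rat in groups OC, LC, OE and LE (points, 6 rats per group; black lines give the mean and the SD). Groups OC and OE average 16.23 and 16.75, and groups LC and LE average 17.56 and 17.55, with 1 OE rat at 18.2 above all LE rats.

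Slc40a1, the gene of the exporter on which hepcidin acts (chromosome 9, 52894291 to 52913263), was not called in any comparison of all 24 rats. The log2 signals were 12.02, 12.17, 12.86, 12.46, 13.07 and 12.15 in group OC, against 12.05, 11.82, 12.0, 11.84, 12.13 and 11.29 in group LC. In 5 of the 6 OC rats the signal was above every LC rat. The difference of 0.60 ± 0.22 (SE, n = 6 per group; 1.52-fold) had an unadjusted p of 0.0124 and an adjusted p of 0.196 in limma, and the exact permutation p was 0.00866. With ecdysterone, group OE had 12.43, 12.13, 12.35, 11.82, 12.56 and 10.99 and group LE had 12.0, 11.44, 11.68, 12.15, 12.16 and 11.56, so that OE held both the highest and the lowest rat (0.22 ± 0.22, adjusted p 0.781). Over both diets the difference was 0.41 ± 0.16 with an adjusted p of 0.142, and without OE rat 24 (10.99) it was 0.51 with an adjusted p of 0.0205. The array carries a second transcript described as Slc40a1-like (LOC100911874), with differences of 0.61 ± 0.19 in OC vs. LC (adjusted p 0.102) and 0.17 ± 0.19 in OE vs. LE (adjusted p 0.81). After subtraction of the group means this transcript followed Slc40a1 across the 24 rats with a Pearson r of 0.936, and whether the probes of either also bind RNA of the other was not tested. Slc40a1 is therefore reported with the reserve that the 2 transcripts may share signal.

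The ferritin genes, whose subunits form the shell that stores iron, differed little between groups. Fth1, the heavy chain that oxidises iron on entry (chromosome 1, 226030567 to 226033242), lay between 16.69 and 17.06 in OC, against 16.62 and 17.02 in LC, and between 16.65 and 16.91 in OE, against 16.77 and 16.99 in LE. Its differences were 0.05 ± 0.11 in OC vs. LC (95% interval -0.18 to 0.28) and -0.09 ± 0.11 in OE vs. LE (-0.32 to 0.14). These intervals leave room only for small changes of the array signal. Whether a signal this high follows a change of the Fth1 mRNA in full was not tested. Ftl1, the light chain that promotes the deposition of iron (chromosome 1, 101448187 to 101450085), lay between 18.98 and 19.35 in OC, against 18.76 and 19.48 in LC, and between 18.89 and 19.54 in OE, against 18.7 and 19.23 in LE. The differences of Ftl1 were 0.10 ± 0.14 (adjusted p 0.85) and 0.23 ± 0.14 (adjusted p 0.533). Another 8 transcripts with a signal above the median are described as ferritin or ferritin light chain copies, and 1 of them has the values of Ftl1 in all 24 arrays. Their differences ranged between 0.10 and 0.26 in OC vs. LC and between 0.23 and 0.36 in OE vs. LE, all positive, and none was called (lowest adjusted p over the genotype comparisons 0.0683). As these copies correlated with Ftl1 across rats (r of 0.858 to 1.0 after subtraction of group means), they may share signal with Ftl1, which was not tested, and the value of Ftl1 is reported with this reserve.

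Tf, the plasma carrier of iron (chromosome 8, 111672789 to 111731599), varied least. Its signals lay between 19.83 and 19.87 in OC, against 19.75 and 19.85 in LC, and between 19.78 and 19.9 in OE, against 19.75 and 19.82 in LE. The differences were 0.05 ± 0.10 in both comparisons (adjusted p 0.915 and 0.906). The mean of Tf was 0.12 below the highest signal of the whole table (19.93) and that of Ftl1 was 0.80 below it, and whether the arrays can still show a rise at this height was not tested.

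Among the genes by which hepatocytes sense iron, Tfr2, a receptor that binds iron-loaded transferrin (chromosome 12, 22177382 to 22194330), did not pass the test in any comparison. Its signals lay between 12.48 and 12.64 in OC, against 12.37 and 12.88 in LC (-0.06 ± 0.15, adjusted p 0.924), and between 12.33 and 13.28 in OE, against 12.41 and 12.85 in LE (0.05 ± 0.15, adjusted p 0.939). The spread between rats was largest in OE (SD 0.37) and smallest in OC (SD 0.07). Bmp6, the ligand whose expression rises with liver iron (chromosome 17, 26953206 to 27113606), had a low signal, and 47.1% of the transcripts on the array had a lower mean. Bmp6 lay between 5.63 and 6.64 in OC, against 6.15 and 6.75 in LC (-0.06 ± 0.18, adjusted p 0.945), and between 6.01 and 6.61 in OE, against 5.96 and 7.03 in LE (-0.02 ± 0.18, adjusted p 0.985). The 95% interval of the first of these differences was -0.42 to 0.30 for the array signal. Whether a signal this low follows a change of the Bmp6 mRNA in full was not tested, so the interval sets no limit on such a change. Ireb2, the iron regulatory protein that is degraded when iron is plentiful (chromosome 8, 59420154 to 59503634), did not pass the test in any comparison of all 24 rats. Its signals were 12.62, 12.57, 12.39, 12.22, 12.87 and 12.57 in OC, against 12.57, 13.04, 13.19, 12.97, 12.92 and 12.25 in LC, and 12.49, 12.5, 12.6, 12.46, 12.75 and 12.5 in OE, against 13.22, 12.97, 12.68, 12.77, 12.46 and 13.01 in LE. All 6 OE rats were below the mean of LE, and 5 of 6 OC rats were below the mean of LC. The differences were -0.28 ± 0.16 and -0.30 ± 0.16, and over both diets -0.29 ± 0.11, which did not pass the adjustment (adjusted p 0.126 in limma) unless LC rat 6 was left out (-0.35, adjusted p 0.0363).

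Of the importers, Slc39a14, which carries iron that is not bound to transferrin into hepatocytes (chromosome 15, 51982871 to 52030008), was 13.59, 13.67, 13.74, 13.73, 13.91 and 13.39 in OC, against 13.34, 12.81, 13.43, 13.3, 14.12 and 13.13 in LC. All 6 OC rats were above the LC mean of 13.36, but 1 LC rat was above all of OC. In OE the signals were 13.47, 13.48, 13.97, 13.04, 13.91 and 13.5, against 13.61, 13.24, 13.21, 12.92, 13.25 and 13.23 in LE. The difference was 0.32 ± 0.18 on each diet (adjusted p 0.486 in both) and 0.32 ± 0.13 over both diets (adjusted p 0.151 in limma), and without LC rat 5, the highest of its group, the last of these was 0.39 with an adjusted p of 0.032. Slc11a2, a transporter of ferrous iron out of endosomes (chromosome 7, 142025812 to 142063052), ranged between 8.16 and 9.0 in OC, against 8.6 and 9.26 in LC, and between 8.24 and 8.9 in OE, against 8.42 and 9.54 in LE. Its difference was -0.18 ± 0.18 in each comparison (adjusted p 0.773 in both).

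**Figure D2:**
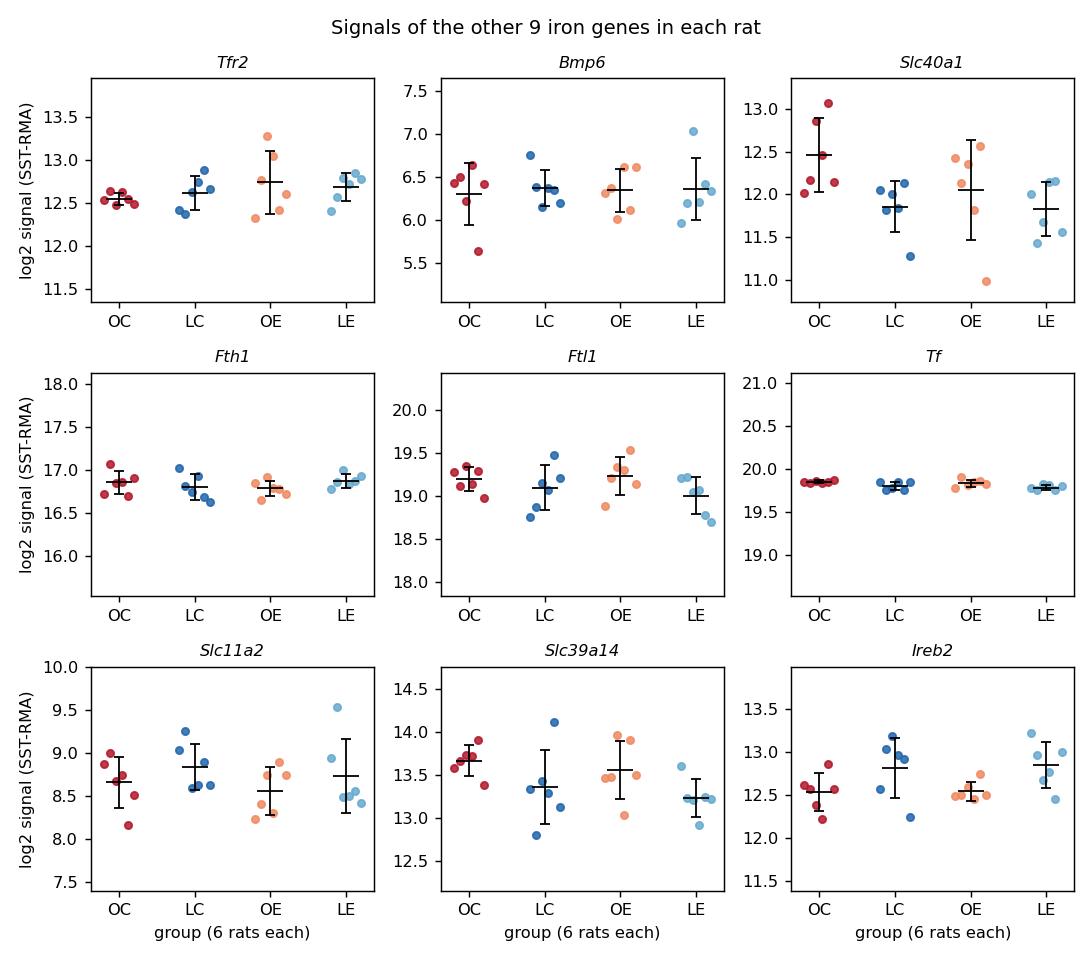
Log2 signals of the other 9 iron genes in each rat of groups OC, LC, OE and LE (points, 6 rats per group; black lines give the mean and the SD), with the same span of the vertical axis in every panel. In 5 of 6 OC rats Slc40a1 lies above every LC rat, Ireb2 lies lower and Slc39a14 higher in most obese rats, and Tf and Fth1 form narrow bands.

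An effect of ecdysterone on the iron genes was not detectable with these arrays. None of the 10 was called in LE vs. LC or OE vs. OC or for the interaction by limma, where 0.0% of all transcripts were called in each of these 3 comparisons. At an unadjusted p under 0.05 none of the 10 passed either, while 3.51% of all transcripts did in LE vs. LC, 5.7% in OE vs. OC and 3.93% for the interaction. In lean rats the differences of the 10 genes lay between -0.11 (Slc39a14) and 0.07 (Tfr2 and Fth1). Hamp differed by -0.02 ± 0.32 in LE vs. LC (95% interval -0.67 to 0.63), which is wide enough to hold a change of moderate size in either direction. In obese rats the largest differences were those of Hamp, at 0.52 ± 0.32 (95% interval -0.14 to 1.17, adjusted p 0.905), and of Slc40a1, at -0.41 ± 0.22 (95% interval -0.87 to 0.05, adjusted p 0.886). Comparisons OC vs. LC and OE vs. OC share the OC rats, and OE vs. LE and LE vs. LC share the LE rats, so that the opposite signs of Hamp in OC vs. LC and OE vs. OC are not 2 separate observations.

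**Figure D3:**
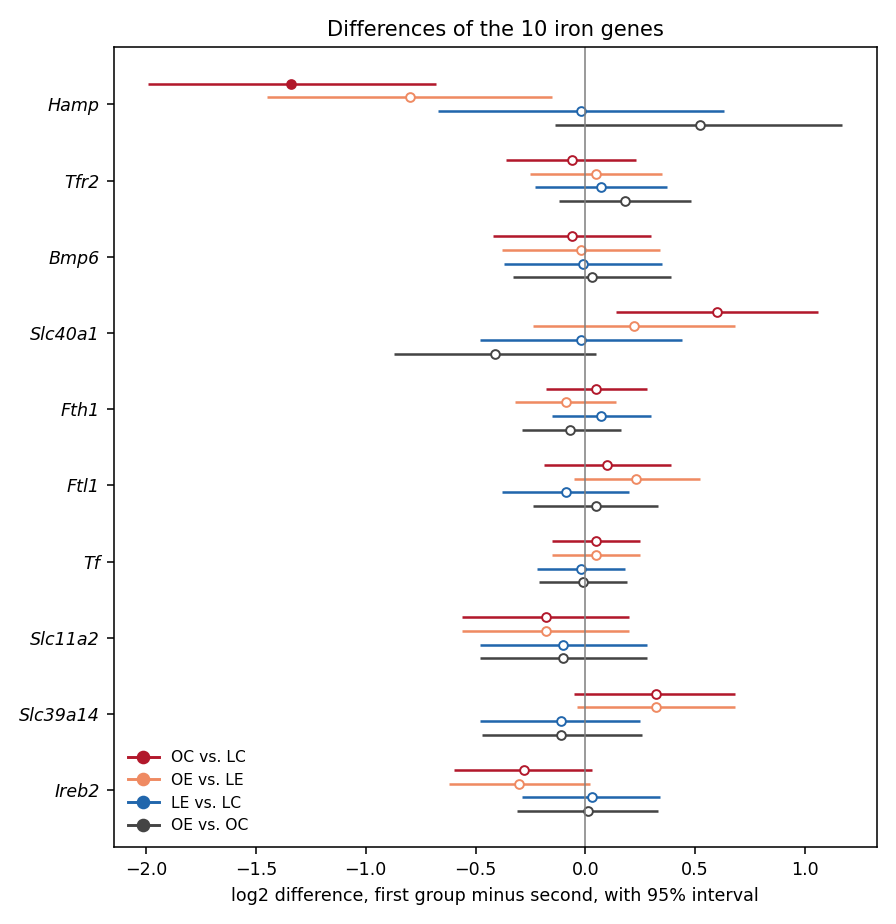
Log2 differences of the 10 iron genes with their 95% intervals from limma in OC vs. LC, OE vs. LE, LE vs. LC and OE vs. OC (filled points are called at an adjusted p under 0.05, open points are not). Only Hamp in OC vs. LC, at -1.34, is filled.

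Of 23 genes that act on Hamp through the BMP and SMAD pathway or respond to it, none was called in OC vs. LC, 1 was called in OE vs. LE and 2 over both diets, all lower. Of all transcripts, 2.59%, 2.11% and 6.52% were called in these 3 comparisons, so the counts of the 23 genes stand close to the background. The 23 genes were at a median difference of -0.14, -0.08 and -0.10 in the same order, against 0.00, 0.00 and -0.01 over all transcripts. Furin, a protease that cuts the precursors of hepcidin and of BMP ligands, fell in obese rats on the ecdysterone diet, with 12.58 to 13.05 in OE (median 12.85) against 13.18 to 13.67 in LE (median 13.32), ranges that do not overlap. The difference of Furin was -0.55 ± 0.14 in OE vs. LE (adjusted p 0.0305 in limma) and -0.45 ± 0.10 over both diets (adjusted p 0.0034). The call in OE vs. LE was lost when any of 8 of the 24 rats was left out, up to an adjusted p of 0.0808 without OE rat 24. Neo1, a receptor that binds hemojuvelin, was lower over both diets (-0.47 ± 0.14, adjusted p 0.0331), which was lost without any of 12 rats (up to 0.0665 without LE rat 7). Hemojuvelin itself, listed in the file under its older symbol, differed by 0.86 ± 0.35 in OC vs. LC (adjusted p 0.262) and by -0.31 ± 0.35 in OE vs. LE (adjusted p 0.81). Tmprss6, a protease that cleaves hemojuvelin and thereby lowers hepcidin, had 11.62 to 12.27 in OC, against 10.96 to 12.02 in LC, and all 6 OC rats were above the mean of LC (0.47 ± 0.19, adjusted p 0.261), whereas its difference in OE vs. LE was 0.16 ± 0.19 (adjusted p 0.828). Of the target genes by which the activity of the pathway is usually read, Id1 differed by 0.48 ± 0.20 in OC vs. LC (adjusted p 0.278), Smad6 by 0.13 ± 0.19, Smad7 by 0.03 ± 0.18 and Atoh8 by -0.20 ± 0.16. In OE vs. LE the differences were -0.08 ± 0.20 for Id1, -0.05 ± 0.19 for Smad6, 0.19 ± 0.18 for Smad7 and -0.15 ± 0.16 for Atoh8, so that the signs of Id1 and Smad6 were not the same on the 2 diets, and none of the 4 was called in any comparison. Hfe differed by -0.22 ± 0.16 in OC vs. LC (adjusted p 0.633) and by -0.06 ± 0.16 in OE vs. LE (adjusted p 0.935).

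Of 14 genes of the STAT3 pathway and its acute phase targets, 1 was called over both diets, where 6.52% of all transcripts were called, and none in OC vs. LC (2.59% of all transcripts) or OE vs. LE (2.11%). The median difference of the 14 was -0.07 in OC vs. LC, 0.04 in OE vs. LE and -0.02 over both diets. The gene called was Crp, the gene of C-reactive protein, with 18.97 to 19.36 in OC against 19.4 to 19.7 in LC, and 18.49 to 19.38 in OE against 19.38 to 19.64 in LE. The groups of Crp did not overlap on either diet, and its difference over both diets was -0.38 ± 0.09 (adjusted p 0.00866 in limma). The signal of Crp was 0.63 below the highest of the table. Socs3, the feedback inhibitor that STAT3 induces, had a low signal and differed by -0.46 ± 0.26 in OC vs. LC (adjusted p 0.503) and by -0.11 ± 0.26 in OE vs. LE (adjusted p 0.93). The transcript of Lepr, the gene that carries the fa mutation, differed by -0.19 ± 0.42 in OC vs. LC and by 0.14 ± 0.42 in OE vs. LE, with a wide spread between rats (8.89 to 12.03 in LC).

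Of 9 genes of the iron regulatory protein system, 2 were called higher in OC vs. LC, 1 in OE vs. LE and 3 over both diets, and none lower, while 2.59%, 2.11% and 6.52% of all transcripts were called in these comparisons in either direction. The median difference of the 9 was 0.06, 0.17 and 0.07 in the same order. Aco1, the iron regulatory protein that turns into cytosolic aconitase when it holds an iron-sulphur cluster, was 12.87 to 13.79 in OC (median 13.23) against 11.72 to 12.65 in LC (median 11.95), and 12.31 to 13.29 in OE (median 12.93) against 11.62 to 12.5 in LE (median 12.31). The difference was 1.12 ± 0.19 in OC vs. LC (2.18-fold, adjusted p 0.000412 in limma), 0.69 ± 0.19 in OE vs. LE (adjusted p 0.0485) and 0.91 ± 0.13 over both diets (adjusted p 2.73e-05). The call in OE vs. LE was lost without any of 17 rats (up to 0.148 without LE rat 11) and in 4 of 11 alternatives, whereas that in OC vs. LC held in all. Tfrc, the receptor that takes up transferrin, was 0.70 ± 0.21 higher over both diets (adjusted p 0.0362 in limma). This call was lost without any of 11 rats (up to 0.0707 without OC rat 16) and in 1 of 8 alternatives. Tfrc was not called in OC vs. LC (0.86 ± 0.29, adjusted p 0.138) or in OE vs. LE (0.54 ± 0.29, adjusted p 0.466). Alas2, the first enzyme of haem synthesis in red blood cell precursors, was 1.00 ± 0.19 higher in OC vs. LC (adjusted p 0.00226) and 0.78 ± 0.14 higher over both diets (adjusted p 0.00031). Its difference of 0.56 ± 0.19 in OE vs. LE was not called (adjusted p 0.162).

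Of 16 genes of iron and haem uptake and reduction, 1 was called higher and 1 lower in OC vs. LC, 1 lower in OE vs. LE, and 2 higher and 2 lower over both diets, against 2.59%, 2.11% and 6.52% of all transcripts in either direction. Their median difference was 0.11, -0.06 and 0.06 in this order. The 2 called higher over both diets were Steap3 and Tfrc. As Tfrc also belongs to the 9 genes of the iron regulatory protein system, its call is counted in both lists. Steap3, the reductase that prepares iron for transport out of endosomes, was 10.17 to 10.43 in OC against 7.88 to 9.82 in LC, without overlap (1.14 ± 0.27, adjusted p 0.0144 in limma), and 8.95 to 10.65 in OE against 8.87 to 9.88 in LE (0.50 ± 0.27, adjusted p 0.466). Slc46a1, a folate transporter that was first described as a carrier of haem, was lower in obese rats on both diets, with 8.52 to 9.39 in OC against 9.78 to 10.96 in LC and 8.17 to 9.3 in OE against 9.9 to 11.15 in LE. Its differences of -1.49 ± 0.22 (adjusted p 8.05e-05) and -1.70 ± 0.22 (adjusted p 1.74e-05) were the largest among the iron genes and the genes that act with them. Slc39a8, a zinc and iron importer related to Slc39a14, was -0.41 ± 0.12 over both diets (adjusted p 0.0456), a call that was lost without any of 18 rats (up to 0.0874 without OE rat 24). Of 14 genes of iron oxidation, export and mitochondrial use, 1 was called higher in OC vs. LC, none in OE vs. LE and 3 higher over both diets, beside the same shares of all transcripts, with a median difference of 0.12, -0.06 and 0.04. These were Glrx5, a glutaredoxin of iron-sulphur cluster assembly (0.64 ± 0.16 in OC vs. LC, adjusted p 0.0277, lost without any of 7 rats and up to 0.081 without LC rat 3; 0.47 ± 0.12 over both diets, adjusted p 0.00977), Hscb, a chaperone of the same assembly (0.53 ± 0.13 over both diets, adjusted p 0.0109), and Flvcr2 (0.42 ± 0.11, adjusted p 0.0211). None of 12 genes of haem synthesis and breakdown was called in these comparisons (median difference 0.10, -0.06 and 0.04), and Hmox1, the enzyme that opens haem and releases its iron, differed by -0.13 ± 0.32 in OC vs. LC and by -0.38 ± 0.32 in OE vs. LE. With the methods' t-test after Benjamini-Hochberg adjustment, the calls of Alas2 (adjusted p 0.0645), Steap3 (0.147) and Glrx5 (0.0761) in OC vs. LC and those of Furin (0.0753) and Aco1 (0.158) in OE vs. LE were lost.

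**Figure D4:**
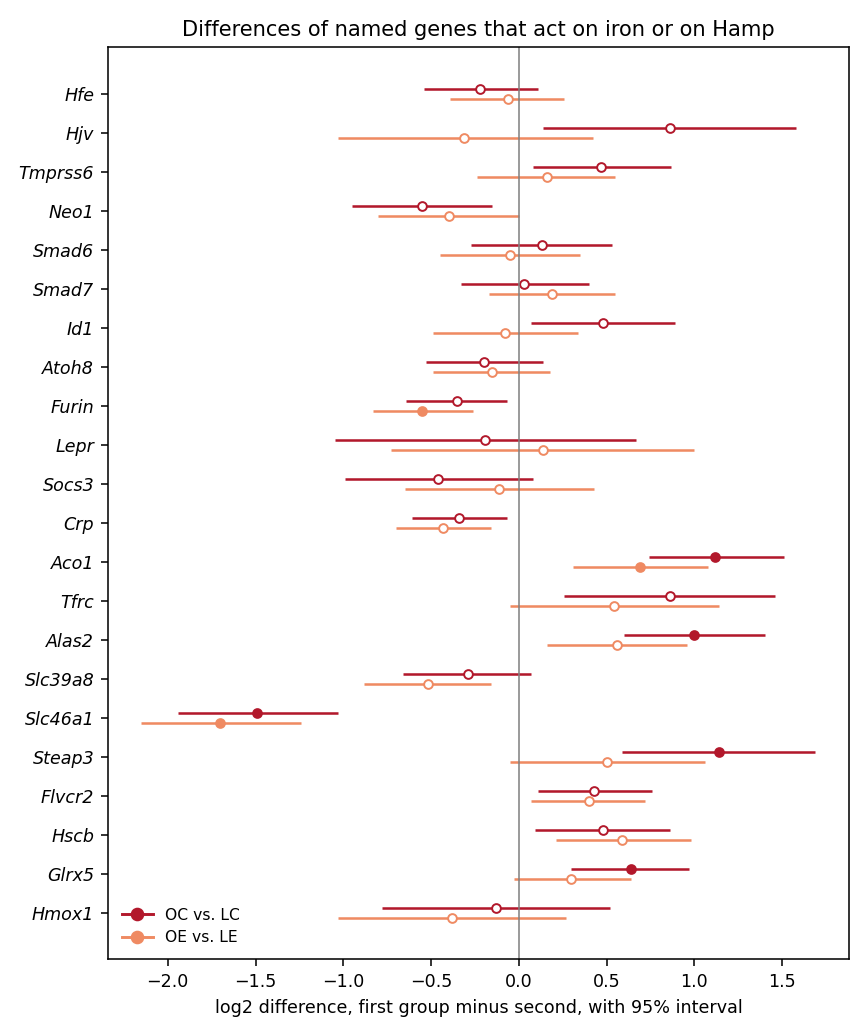
Log2 differences with 95% intervals from limma of the 22 named genes that act on Hamp or on iron, in OC vs. LC and OE vs. LE (filled points are called at an adjusted p under 0.05, open points are not). Aco1 and Slc46a1 are filled in both comparisons, at 1.12 and 0.69 and at -1.49 and -1.70.

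Markers of other cells in the liver were read beside these values. The 14 erythroid markers (red blood cells and precursors), Alas2 among them, averaged 6.84 to 7.22 per rat in OC against 6.23 to 6.67 in LC, and 6.63 to 7.23 in OE against 6.41 to 6.74 in LE, and 5, 2 and 7 of the 14 were called higher in OC vs. LC, OE vs. LE and over both diets (2.59%, 2.11% and 6.52% of all transcripts). The haemoglobin gene Hbb was 1.48 higher in OC vs. LC (adjusted p 0.011 in limma) and 0.86 higher in OE vs. LE (adjusted p 0.254), so that red blood cell transcripts moved with Alas2, Tfrc and Steap3, and their part in these differences was not tested. None of the 12 Kupffer cell and macrophage markers and none of the 11 measured markers of sinusoidal endothelial cells, the cells that make BMP6, was called in the genotype comparisons. The median difference of the endothelial markers was 0.18 in OC vs. LC, 0.24 in OE vs. LE and 0.21 over both diets. Of the 11, 8, 10 and 8 were above 0, and 2, 4 and 4 had an unadjusted p under 0.05 in limma (12.8%, 12.4% and 17.8% of all transcripts). The medians of the Kupffer cell and macrophage markers were 0.15, -0.11 and 0.02. The 9 hepatocyte markers averaged 18.24 to 18.47 per rat in OC, against 18.22 to 18.57 in LC, and 18.07 to 18.42 in OE, against 18.18 to 18.51 in LE, which are signals near the top of the scale, as belongs to liver. Of these 9, 1 was called higher in OC vs. LC, in OE vs. LE and over both diets. In the same order, 0, 1 and 2 were called lower, beside 2.59%, 2.11% and 6.52% of all transcripts in either direction. The differences of 7, 8 and 8 of the 9 were below 0 in this order. The gene called higher was Apoa1 (1.08 in each). Cps1, an enzyme of the urea cycle, was called lower in OE vs. LE (-0.78, adjusted p 0.00453 in limma) and over both diets (-0.63, adjusted p 0.000326). Tat, an enzyme of tyrosine breakdown, was called lower over both diets (-0.90 ± 0.28, adjusted p 0.0487 in limma). It had the lowest difference of the 9 hepatocyte markers, whose median difference over both diets was -0.05. The call of Tat was lost without any of 17 rats (up to 0.0947 without LC rat 2), and its differences of -0.74 in OC vs. LC and -1.06 in OE vs. LE were not called (adjusted p 0.449 and 0.211).

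Across the 24 rats, after subtraction of the group means, Hamp was set against 9 transcripts of its control pathways and of iron transport, and no relation passed the adjustment over the 9 (lowest adjusted permutation p 0.415). Hamp against Id1 had a Pearson r of 0.369 (permutation p 0.0977, adjusted 0.435) and a Spearman rho of 0.381 (p 0.0957, adjusted 0.431), with r of 0.405 without the 2 rats farthest from the median of Id1. Within the 12 obese rats r was 0.747 and within the 12 lean rats -0.311. The other target genes of the BMP and SMAD pathway did not share 1 sign. In the obese rats r with Hamp was 0.588 for Smad6, -0.545 for Smad7 and -0.642 for Atoh8. In the lean rats it was -0.058, -0.0201 and 0.13 in the same order. Differences between obese and lean rats in r were not tested. Hamp against Atoh8 had the lowest unadjusted p of a Pearson r (r -0.473, permutation p 0.0461, adjusted 0.415; rho -0.299, p 0.199, adjusted 0.492; r -0.405 without the 2 farthest rats). Hamp against Bmp6 had the lowest unadjusted p of a Spearman rho (rho -0.399, permutation p 0.0691, adjusted 0.431). The Pearson r with Bmp6 was -0.244 (permutation p 0.255, adjusted 0.459), and -0.506 without the 2 farthest rats. With Tfrc, r was -0.69 in the lean rats and 0.299 in the obese rats. Hamp against Slc40a1 had an r of 0.14 (p 0.59, adjusted 0.735) and a rho of 0.13 (p 0.573, adjusted 0.654), with r of 0.281 without the 2 farthest rats. Among 11454 transcripts with a symbol and a signal above the median, Mfge8 (r 0.738) and Sirpa (r 0.735) were among the 3 most like Hamp across rats within groups. The 3 most like Bmp6 were 2 probe sets of Pomp (r 0.777 and 0.739) and Ntpcr (r 0.741), and for Slc40a1 they were LOC100911874, Cd53 (r 0.786) and Ugt2b1 (r 0.774). With so many transcripts compared over 24 rats these values are a description only.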

How the data were processed

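Liver RNA of 24 rats was hybridised to Clariom S rat arrays. The authors used the SST-RMA algorithm of Affymetrix Expression Console 1.4 for background correction, normalisation and summary of the probes, and the deposited values are log2 signals of each array. Their group means, signed fold changes (a score computed by the authors), log2 differences and p-values of Student's test, also deposited, were not used. A second deposited table differed by at most 0.005 (log2). Of 23188 transcripts, 22877 carry a symbol, and 27 symbols that had become dates were left out. Coordinates are those of the file (9 of 10 Rnor_6.0 positions quoted in its descriptions overlap those of their transcript).

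The signals were fitted in limma 3.58.1 (R 4.3.3) with 4 group means (20 residual and 8.39 prior degrees of freedom). Exact permutation tests used all 924 divisions of 12 rats, and relations across rats used 100000 permutations within groups. The fit was tested on simulated data. The number of arrays limits the precision: intervals are 95% intervals of the fit.

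The iron genes and the lists of other genes were chosen with earlier results of these data known, and after the paper and its supplementary tables had been read. Named are all 10 iron genes, every other listed gene called for the genotype, 12 genes always named for their roles, and the 3 transcripts most like Hamp, Bmp6 and Slc40a1; Hbb, Apoa1, Cps1 and Tat were named after their values were seen. A listed gene and a transcript picked by likeness are not reported here, and the listed gene is left out of the counts of its list. Alternatives were the methods' t-test, the methods' criteria (fold change above 1.3 and unadjusted p under 0.05), a fit of the 2 groups alone, median centring, quantile normalisation, 2 filters on low signals, eBayes with trend and robust settings, array weights, the second table, means over probe sets, and leaving out each rat. No column of per-sample values was left unused. Promoter windows are from RefSeq (GRCr8).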

Additional observations from a re-analysis of the deposited data

Results flagged for a closer look

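In 128 groups of 6 rats (32 genes in 4 groups), 8 rats stood apart from the other 5 of their group by a gap that took up most of the range of the group (above the critical value of Dixon's test at 95%), where chance gives about 5 in 100 groups. Among the 10 iron genes this concerned only Slc40a1, for which LC rat 6 had a log2 signal of 11.29 and the next rat 11.82. The others were Hfe in LE rat 7 (9.15), Atoh8 in LE rat 12 (9.67), Lepr in OE rat 22 (12.4), Aco1 in LE rat 11 (11.62), Alas2 in LC rat 5 (6.46), and Glrx5 in OC rat 15 (10.84) and in OE rat 21 (11.77). All 8 values come from different rats. OE rat 23, whose Hamp signal of 18.2 decides the call in OE vs. LE, was not among them. No gene named here had an effect of ecdysterone that differed between genotypes after adjustment.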

How the results depend on the processing

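With the methods' t-test after adjustment, none of the 10 iron genes was called in OC vs. LC, and 1.1% of all transcripts were called in OC vs. LC and 0.578% in OE vs. LE, against 2.59% and 2.11% in the limma fit of 4 groups. With the methods' criteria 2 iron genes (Hamp and Slc40a1) passed in OC vs. LC, and 8.68% of all transcripts passed in OC vs. LC, 8.04% in OE vs. LE, 3.08% in OE vs. OC and 1.85% in LE vs. LC. When each rat was left out in turn, 0 to 1 iron gene was called in OE vs. LE and 1 to 2 over both diets, and the share of all transcripts that was called ranged between 2.0% and 2.99% in OC vs. LC and between 1.42% and 2.2% in OE vs. LE. The t-test, the methods' criteria and the 2-group fit compare 2 groups, so they gave no value over both diets or for the interaction. No called difference changed its sign under any alternative. Of the values under the alternatives, 85 lost and 20 gained a call and 4191 were counted as the same. The 4191 include the values of r of Hamp with 9 transcripts, which have no call, and the rest are values of single genes that kept their side of the threshold. No paired analysis was possible because every rat has a number of its own. Raw intensities were not analysed here, so background correction was not varied, and signals close to the top of the scale (Tf, Ftl1) limit what can be seen.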
